A study of Mus musculus with 14 samples.

Results

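The genes of the proteasome were followed in single mouse embryos made by somatic cell nuclear transfer (SCNT). The set held every gene whose symbol starts with Psma, Psmb, Psmc, Psmd, Psme, Psmf or Psmg, which gave 50 of the 20636 genes in the files. By known role, 14 encode the 20S core (7 alpha and 7 beta subunits), 5 are immune or tissue-specific core subunits, 17 encode the 19S regulatory particle (6 ATPases and 11 non-ATPases), 7 are assembly chaperones and 5 are other activators or inhibitors. The last 2, Psmc3ip, a meiotic recombination factor, and Psme3ip1, which binds the Psme3 product, share the symbols without being subunits and were kept in the count. Each of 48 genes had 1 entry, and the 2 entries of Psmd10 and of Psme2 were summed. Genes with other symbols, such as Adrm1, Sem1 and Pomp of the pathway list used below, fall outside the set. Class sums and ratios therefore cover only genes with these symbols.

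The proteasome is the protease that degrades proteins tagged with ubiquitin. Its barrel-shaped core carries the cutting sites on beta subunits, and the regulatory particle at the ends of the barrel recognizes ubiquitin, unfolds the substrate and feeds it in. In oocytes and early embryos the proteasome is known for clearing maternal proteins during the passage to embryonic control.

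Each of 14 two-cell embryos gave a library of its own, collected 28 h after the start of activation. Cumulus cells served as nuclear donors, all mice were B6D2F1, and every embryo, controls included, had been activated with strontium chloride and cytochalasin B and cultured with deionized bovine serum albumin. Trichostatin A (TSA, an inhibitor of histone deacetylases) was given at 50 nM for the first 8 h, and vitamin C (VC) at 10 µg/ml from 0 to 8 h or from 8 to 15 h. There were 3 control, 3 TSA(0-8h), 3 TSA(0-8h)+VC(8-15h), 2 TSA(0-8h)+VC(0-8h) and 2 VC(8-15h) embryos and 1 VC(0-8h) embryo. Each replicate was a separate embryo. The zona was removed, part of the RNA of an embryo entered the amplified library, and values are RPKM, reads scaled to transcript length and library total.

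Between 3021540 and 13589389 reads were counted per embryo, so that 3 reads on a transcript of 1 kb equal 0.221 to 0.993 RPKM, a floor that covers counting error only. The library identifier splits the embryos into 3 sets, called pools here, and the labels do not say what the sets mark. In the 3-embryo groups the pool coincides with the replicate number, so that separate nuclear transfers, library preparation and sequencing cannot be told apart. Of 10 oocyte markers, 5 to 9 were at 1 RPKM or more in each embryo, and of 10 two-cell markers 2 to 9. At least 1 RPKM was seen for 3 of 14 cumulus markers in any embryo, with a summed level of 0 to 144 RPKM and Fshr, Inha and Inhba listed at 0 throughout. None of 7 immune cell markers reached 1 RPKM, and Ptprc, Lyz2 and Nkg7 were listed at 0. VC(8-15h) replicate 2 had the fewest genes at 1 RPKM or more, 3130 against 3337 to 6231 in the others. In RNA of a whole embryo, fewer cells of a type and less RNA per cell cannot be told apart.

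Psme3 and Psme4 had the highest median levels of the proteasome genes and alone reached 1 RPKM in all 14 embryos. At 5 RPKM or more, Psme3 was seen in 14 and Psme4 in 13 embryos. Their products, PA28 gamma and PA200, cap the core in the nucleus without needing ubiquitin. That is 2 of the 46 members with any read, or 4.35%, beside 5.47% of 15597 genes with any read. The bases upstream of both genes are shown with those of Psmd5, an assembly chaperone described below, and Psmb8, an immune subunit with no read. Psme3 and Psme4 stand for the high end of the range of medians and Psmb8 for the low end. Each window holds the 250 bases before the gene's start in RefSeq (GRCm38.p6), and capitals mark CCAAT or TGANNNNGC, the core of the antioxidant response element, on either strand.

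Psme3, chr11:101315963-101316212, plus strand: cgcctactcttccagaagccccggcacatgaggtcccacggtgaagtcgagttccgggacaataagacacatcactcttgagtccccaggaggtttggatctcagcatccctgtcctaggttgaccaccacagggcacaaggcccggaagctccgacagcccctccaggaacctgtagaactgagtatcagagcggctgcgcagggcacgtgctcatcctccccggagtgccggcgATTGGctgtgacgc
Psme4, chr11:30771525-30771774, plus strand: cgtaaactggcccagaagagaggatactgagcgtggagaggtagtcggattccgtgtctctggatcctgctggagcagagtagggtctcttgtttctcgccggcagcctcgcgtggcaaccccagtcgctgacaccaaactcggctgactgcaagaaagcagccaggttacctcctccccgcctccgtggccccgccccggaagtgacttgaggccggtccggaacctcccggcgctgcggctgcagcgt
Psmd5, chr2:34870963-34871212, minus strand: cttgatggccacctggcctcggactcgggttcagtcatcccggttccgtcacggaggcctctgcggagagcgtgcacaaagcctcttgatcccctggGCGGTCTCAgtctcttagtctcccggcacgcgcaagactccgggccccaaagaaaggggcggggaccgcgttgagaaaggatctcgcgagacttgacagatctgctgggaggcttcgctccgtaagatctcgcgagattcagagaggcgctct
Psmb8, chr17:34197945-34198194, plus strand: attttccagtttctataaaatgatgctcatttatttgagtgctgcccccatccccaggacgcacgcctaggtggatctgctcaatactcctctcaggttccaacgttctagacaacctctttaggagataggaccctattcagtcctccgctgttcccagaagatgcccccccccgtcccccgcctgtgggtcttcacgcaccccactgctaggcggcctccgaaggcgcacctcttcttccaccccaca

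These letters were searched with TATAAA, on both strands, in the 250 bases upstream in 46 windows that matched 42 of the members. CCAAT was found in 34.8% of the members' windows and 33.9% of all 32851 windows. TGANNNNGC was found in 41.3% and 35.2%, and TATAAA in 8.70% and 12.4%. The CCAAT match of Psme3 lay on the opposite strand near the start, and Psme4 held none of the 3 motifs.

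The median of Psme3 was 259.6 RPKM (range 7.15 to 456). It stood at 165, 456 and 407 RPKM in control replicates 1 to 3, at 167, 54.9 and 356 in the TSA(0-8h) embryos and at 339, 243 and 121 in the TSA(0-8h)+VC(8-15h) embryos. The TSA(0-8h)+VC(0-8h) embryos had 280 and 254 RPKM, the VC(0-8h) embryo 310 and the VC(8-15h) embryos 265 and 7.15. The 3-embryo groups overlapped, VC(8-15h) replicate 2 was the lowest of all, and without that embryo the range was 54.9 to 456 RPKM.

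Psme4 had a median of 116 RPKM (range 1.28 to 223). Its levels were 92.7, 111 and 195 RPKM in the controls, 31.9, 173 and 52.0 with TSA(0-8h) and 121, 171 and 151 with TSA(0-8h)+VC(8-15h). TSA(0-8h)+VC(0-8h) embryos had 160 and 81.5 RPKM, the VC(0-8h) embryo 109 and the VC(8-15h) embryos 223 and 1.28. The lowest value again belonged to VC(8-15h) replicate 2, and the range without it was 31.9 to 223 RPKM. In that library Psme3 had 123 reads and Psme4 had 54, while the core gene Psmb1 had 7608.

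The remaining activators were close to absent. Psme1 and Psme2 encode the interferon-inducible PA28 alpha and beta. Psme2 had no read in any embryo, and Psme1 reached 27.9 RPKM in VC(8-15h) replicate 1 with at most 0.236 RPKM in the others. Psmf1, which encodes the inhibitor PI31, was at 1 RPKM or more in 4 embryos and peaked at 22.5 RPKM in the VC(0-8h) embryo.

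**Figure D1:**
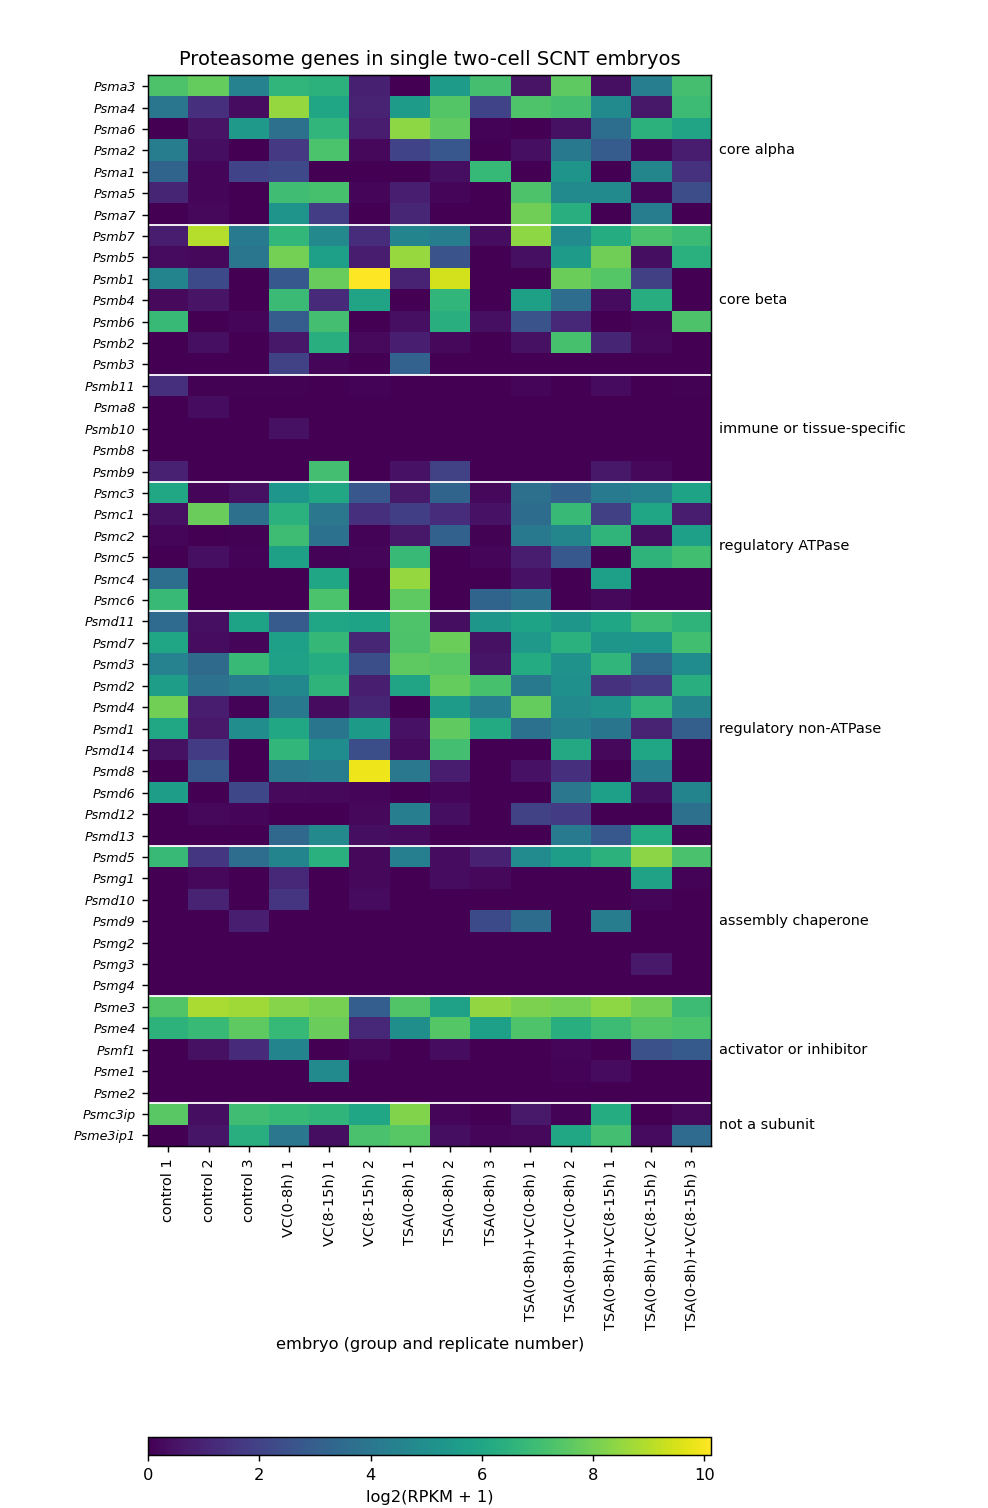
Level of each of the 50 genes (rows, by class) in each of the 14 embryos (columns, by group and replicate number), as log2(RPKM + 1) on the colour scale. Psme3 and Psme4 form the only rows at 1 RPKM or more in all 14 embryos, core and regulatory rows are patchy, and the immune and most chaperone rows are dark.

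None of the 14 core genes reached 1 RPKM in every embryo. Psma3 and Psma4, alpha subunits of the rings that gate the barrel, had the highest alpha medians, at 67.6 and 37.0 RPKM, and were at 1 RPKM or more in 10 and 11 embryos. Psmb7, the beta subunit with trypsin-like activity, had the highest beta median, 27.3 RPKM, and was at 1 RPKM or more in 12 embryos. Psma7 was listed at 0 in 7 embryos and reached 245 RPKM in TSA(0-8h)+VC(0-8h) replicate 1, and Psmb3 was listed at 0 in 11 and reached 8.15 RPKM in TSA(0-8h) replicate 1.

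The other catalytic subunits showed the same on-and-off pattern. Psmb5, with chymotrypsin-like activity, was at 0.212, 0.167 and 14.5 RPKM in the controls, 377, 5.00 and 0 in the TSA(0-8h) embryos and 245, 0.295 and 85.6 in the TSA(0-8h)+VC(8-15h) embryos. Each of these groups held an embryo above 10 RPKM and an embryo under 1 RPKM, and the groups overlapped. Psmb6, with caspase-like activity, had 112, 0 and 0.142 RPKM in the controls, 0.319, 80.4 and 0.328 with TSA(0-8h) and 0, 0.124 and 155 with TSA(0-8h)+VC(8-15h). Psmb5, Psmb6 and Psmb7 were all at 1 RPKM or more in 5 of 14 embryos, and none of them was in TSA(0-8h) replicate 3. The 7 alpha genes were complete in 1 embryo, the 7 beta genes and the 6 ATPase genes in 0.

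A single gene could hold most of the core signal. The most abundant core gene took 20.6% to 94.5% of an embryo's summed core RPKM, and over 50% in 4 embryos. The highest share was that of Psmb1, a non-catalytic beta subunit, at 1117 RPKM in VC(8-15h) replicate 2. It was also the leading core gene in TSA(0-8h) replicate 2, at 689 RPKM, and had no read in 4 embryos.

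Among the genes of the regulatory particle, Psmd2 and Psmd3 were the most widespread, at 1 RPKM or more in 13 of 14 embryos with medians of 29.3 and 44.9 RPKM. Psmd2 encodes a scaffold that docks ubiquitin shuttles, and Psmd3 a lid subunit. The highest non-ATPase medians were those of Psmd11, 57.2 RPKM, and of Psmd7, 48.1 RPKM, also lid subunits. Among the ATPases, which unfold the substrate, Psmc3 led with a median of 10.4 RPKM, followed by Psmc1 with 6.94 RPKM. Psmd8 reached 936 RPKM in VC(8-15h) replicate 2, where Psmd2 was at 0.822 RPKM. Psmd13, a lid subunit, was listed at 0 in 7 embryos and reached 74.1 RPKM in TSA(0-8h)+VC(8-15h) replicate 2.

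Psmc4 and Psmc6 were listed at 0 in 9 and 8 embryos, and their values differed between the pools. Psmc4 was at 11.7, 62.2, 370, 0.427 and 51.9 RPKM in the 5 embryos of pool 1 and had no read in the 9 others. Such a split, 4 or 5 of pool 1 and none of the others at 1 RPKM or more, was seen for 25 of 15597 genes with any read (0.160%). Psmc6 was at 1 RPKM or more in 4 of 5 embryos of pool 1, 0 of 6 of pool 2 and 1 of 3 of pool 3, the latter being TSA(0-8h) replicate 3 at 8.54 RPKM. Conversely, Psma7, Psmb1, Psmb4 and Psmd8 had no read in pool 3, although each was at 1 RPKM or more in at least 6 of the 11 other embryos, a pattern of 60 genes (0.385%). The part of the pool in these values was not tested. Both shares are over all genes with any read, whose median gene was at 1 RPKM or more in 2 embryos, against 7 for the members. No comparison with genes as widely detected was made.

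The immune and tissue-specific subunits replace catalytic or alpha subunits in other tissues. Psmb8, the immune counterpart of Psmb5, had no read in any embryo, and Psmb10, the counterpart of Psmb7, had 1 read in 1 embryo. Psmb9, the counterpart of Psmb6, was at 138 RPKM (1094 reads) in VC(8-15h) replicate 1, at 2.86 RPKM in TSA(0-8h) replicate 2 and below 1 RPKM in the other 12. The embryo with Psmb9 was also the one with Psme1, and none of the 7 immune cell markers reached 1 RPKM in it. The thymic Psmb11 peaked at 1.61 RPKM in control replicate 1, and the testis form Psma8 had 3 reads in 1 embryo. Summed over the class, these genes made up 0 to 12.9% of the core sum, with a median of 0.0384%.

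Of the assembly chaperones, Psmd5, which holds ATPases of the regulatory particle before they join it, was the most widely detected, with a median of 25.6 RPKM and at least 1 RPKM in 11 embryos. Psmg1 to Psmg4 encode chaperones of the alpha ring. Psmg2 and Psmg4 had no read, Psmg3 had 4 reads in 1 embryo, and Psmg1 reached 55.8 RPKM in TSA(0-8h)+VC(8-15h) replicate 2 against at most 1.19 RPKM elsewhere. Psmd9 peaked at 18.6 RPKM and was listed at 0 in 10 embryos, and Psmd10 peaked at 1.88 RPKM and was likewise listed at 0 in 10. The non-subunits Psmc3ip and Psme3ip1 had medians of 30.5 and 5.59 RPKM, each at 1 RPKM or more in 7 embryos.

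Core and regulatory genes varied widely between embryos. Across the 14 embryos, the SD of log2(RPKM + 1) had a median of 2.33 over the 46 members with any read, 2.94 over the core and 2.55 over the regulatory particle, against 1.47 over the 15597 genes. The share at 1 RPKM or more in some but not all embryos was 89.1% of the members and 67.3% of the genes. No embryo reached 1 RPKM for 6.52% of the members and 27.3% of the genes. Genes under 1 RPKM throughout lower both the share and the SD of the 15597 genes, so neither contrast compares genes as widely detected. These are descriptions of genes that differ in level, and no test was made of them.

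**Figure D2:**
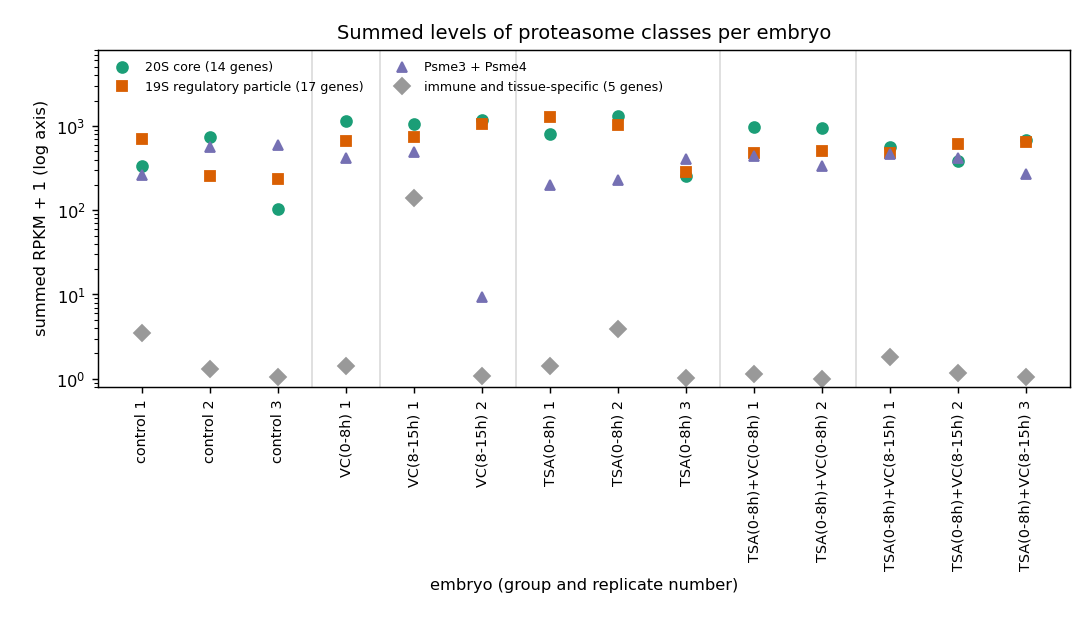
Summed RPKM + 1 (log axis) of the core, of the regulatory particle, of Psme3 and Psme4 together and of the immune and tissue-specific subunits in each embryo, ordered by group. Core and regulatory sums lie within a factor of 3 of each other in every embryo, and Psme3 with Psme4 fall to 8.42 RPKM in VC(8-15h) replicate 2.

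The summed core RPKM was 335, 736 and 101 in the controls, 805, 1315 and 252 in the TSA(0-8h) embryos and 570, 383 and 687 in those given TSA(0-8h)+VC(8-15h). The sum was 968 and 956 with TSA(0-8h)+VC(0-8h), 1146 with VC(0-8h) and 1065 and 1182 with VC(8-15h). The 3-embryo groups overlapped. Divided by the core sum, the regulatory sum was 2.10, 0.349 and 2.32 in the controls, 1.60, 0.778 and 1.14 with TSA(0-8h) and 0.847, 1.60 and 0.940 with TSA(0-8h)+VC(8-15h), again overlapping. Over all embryos the median of this ratio was 0.871 from sums. From the median gene of each class it was 2.49, leaving out TSA(0-8h) replicate 3, where the median core gene was at 0 RPKM. Several of these class medians lay below 1 RPKM. Which class was higher thus turned with the summary used. Psme3 and Psme4 together held 16.1%, 36.3% and 51.8% of the summed RPKM of all members in the controls, 7.14%, 8.86% and 42.9% with TSA(0-8h), 25.1%, 23.0% and 15.3% with TSA(0-8h)+VC(8-15h) and 0.343% in VC(8-15h) replicate 2.

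The number of members at 1 RPKM or more was 22, 12 and 17 in the controls, 22, 21 and 11 with TSA(0-8h) and 26, 23 and 24 with TSA(0-8h)+VC(8-15h). It was 21 and 31 with TSA(0-8h)+VC(0-8h), 31 and 16 with VC(8-15h) and 34 with VC(0-8h). Each TSA(0-8h)+VC(8-15h) embryo was thus above each control and each TSA(0-8h) embryo, at the closest with 23 against 22. The number of all genes at 1 RPKM or more was also higher in each TSA(0-8h)+VC(8-15h) embryo than in each control and each TSA(0-8h) embryo. It was 4883, 3613 and 5033 in the controls, 3930, 3337 and 4005 with TSA(0-8h) and 5134, 5161 and 5350 with TSA(0-8h)+VC(8-15h). From controls to TSA(0-8h) embryos the median of all genes went from 4883 to 3930, but that of the members from 17 to 21. Summed two-cell markers also put TSA(0-8h)+VC(8-15h) embryos, at 394 to 589 RPKM, above controls (7.58 to 283) and TSA(0-8h) embryos (149 to 372). The summed cumulus markers overlapped (0.111 to 18.4 RPKM in controls, 0 to 144 with TSA(0-8h) and 2.13 to 63.6 with TSA(0-8h)+VC(8-15h)). The part of all genes and of these markers in the members' count was not tested. At 5 RPKM or more, the lowest TSA(0-8h)+VC(8-15h) embryo and the highest control both had 20 members.

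**Figure D3:**
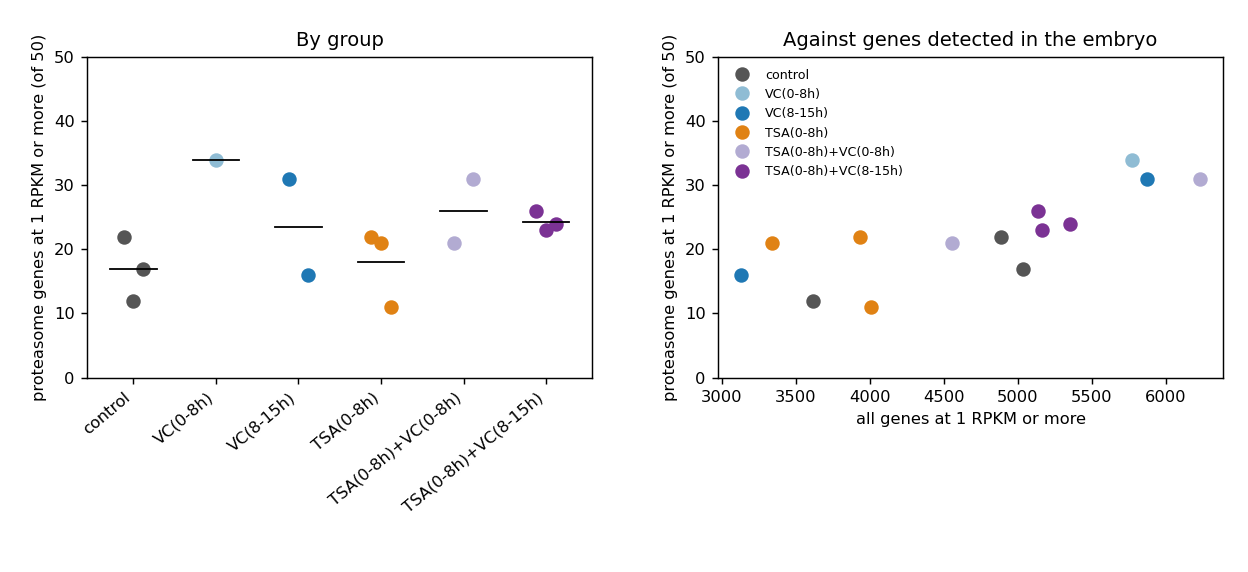
Number of the 50 genes at 1 RPKM or more in each embryo, by group (left, lines are means) and against the number of all genes at 1 RPKM or more in the same embryo (right). The TSA(0-8h)+VC(8-15h) embryos sit at 23 to 26, above the controls (12 to 22) and the TSA(0-8h) embryos (11 to 22), and have more genes of any kind.

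To see which members differ under the sequential treatment, TSA(0-8h)+VC(8-15h) embryos were compared with controls. With limma and Benjamini-Hochberg adjustment over all 3323 genes tested (kept where all 3 embryos of one or the other group had 1 RPKM or more), 0 of the 12 members tested passed an adjusted p of 0.05, and 0% of all genes did. At an unadjusted p under 0.05 there was 1 member, beside 17.7% of all genes, and limma-voom on recovered reads called 0 members, beside 9.66% of all genes. Of the 12, 5 passed the filter in both groups, 6 only through TSA(0-8h)+VC(8-15h) and 1 only through the controls. Without overlap between the groups, 1 member was higher and 0 were lower, beside 15.6% and 5.72% of all genes.

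That member was Psmd11, whose product clamps core and regulatory particle together, and it passed the filter only through TSA(0-8h)+VC(8-15h), where it was high. It had 10.8, 0.334 and 57.5 RPKM in the controls and 63.1, 123 and 94.1 RPKM in the TSA(0-8h)+VC(8-15h) embryos. The highest control lay just under the lowest treated embryo. The log2 difference of RPKM + 1 was 3.23 (SE 1.58, 95% interval -0.10 to 6.56), with an adjusted p of 0.301 by limma and 0.1 by a two-sided exact permutation test, the smallest p that 3 against 3 allows. Within pools 1 to 3 it was 2.44, 6.54 and 0.70.

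Psmd5 had the smallest p. It was at 112, 2.07 and 11.3 RPKM in the controls and 89.9, 329 and 150 RPKM in the TSA(0-8h)+VC(8-15h) embryos, so that control replicate 1 overlapped the treated group. The log2 difference was 3.35 (SE 1.38, limma adjusted p 0.200), and within pools it was -0.32, 6.75 and 3.62. For Psme3 the log2 difference was -0.54 (95% interval -2.10 to 1.02, adjusted p 0.750 by limma) and for Psme4 0.21 (-1.56 to 1.99, adjusted p 0.931 by limma), intervals that leave room for changes in both directions. The median log2 difference was 0.77 over the 46 members with any read (69.6% positive) and 0 over the 15597 genes with any read (47.1% positive). Over the 3323 genes that passed the filter it was 0.78. Scaling the embryos by median ratios moved the median of the genes that passed to -0.03. That of the 46 members, which were not filtered, moved to 0.43.

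The effect of TSA alone was examined against the same control embryos. Of the 7 members tested with limma among 2490 genes, 0 passed, beside 0% of all genes, and at an unadjusted p under 0.05 there were 0 members, beside 14.9% of all genes. Limma-voom also called 0 members, beside 0.0803% of all genes. Of the 7, 3 passed the filter in both groups, 1 only through TSA(0-8h) and 3 only through the controls. Without overlap, 1 member was higher and 0 were lower, beside 6.59% and 11.8% of all genes. The higher one was Psmd2, at 50.2, 13.3 and 18.7 RPKM in the controls and 58.8, 209 and 144 RPKM in the TSA(0-8h) embryos. Control replicate 1 and TSA(0-8h) replicate 1 nearly met. The log2 difference was 2.33 (SE 1.49, limma adjusted p 0.519; exact permutation p 0.1), and within pools 0.22, 3.88 and 2.88.

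Psme3 and Psme4 differed by -1.07 (95% interval -3.09 to 0.95) and -0.92 (-3.52 to 1.67) on the log2 scale, with adjusted p-values of 0.688 and 0.809 by limma. Psma4 stood at 14.8, 1.59 and 0.269 RPKM in the controls and 47.4, 170 and 3.11 RPKM with TSA(0-8h), overlapping through the last embryo (log2 difference 3.12, limma adjusted p 0.538). It passed the filter only through TSA(0-8h), where it was high. The median log2 difference was 0.29 over the 46 members (63.0% positive) and 0 over the 15597 genes with any read (36.5% positive), and over the 2490 genes that passed the filter it was -0.40. With median-ratio scaling the median of the 46 members was 0.57 and that of the genes that passed, an unlike set, 0.02. The members' median was -0.08 without TSA(0-8h) replicate 1 and 0 without TSA(0-8h) replicate 2 or without control replicate 2, so its direction rested on single embryos.

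**Figure D4:**
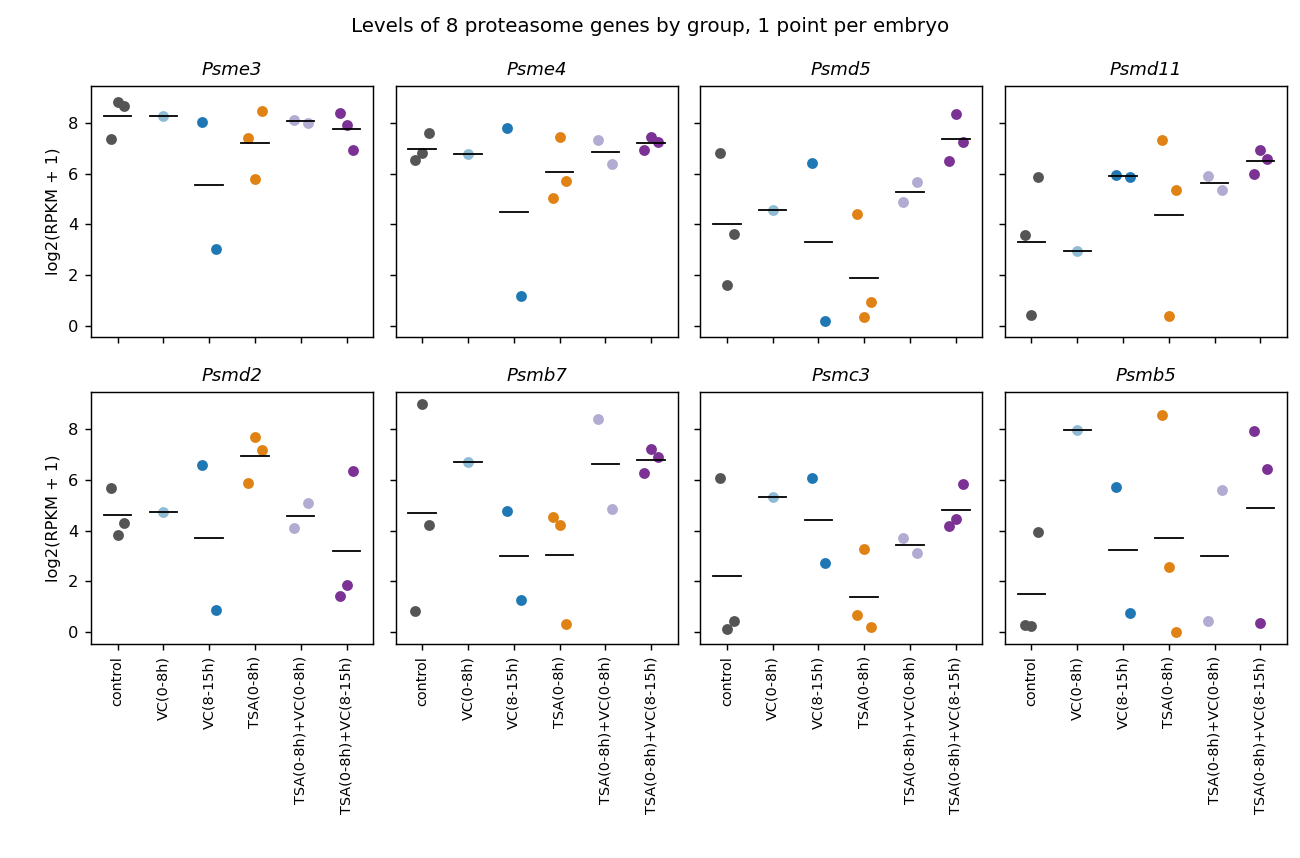
Levels of 8 genes as log2(RPKM + 1) by group, with 1 point per embryo and a line at the group mean. Psmd5, Psmb7 and Psmc3 are higher in all 3 TSA(0-8h)+VC(8-15h) embryos than in all 3 TSA(0-8h) embryos, Psmd2 is high with TSA(0-8h), and Psme3 and Psme4 overlap between the 3-embryo groups and are lowest in VC(8-15h) replicate 2.

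What late VC adds to TSA was asked by comparing TSA(0-8h)+VC(8-15h) with TSA(0-8h) embryos. Of the 12 members tested with limma among 3140 genes, 0 passed, beside 0% of all genes. At an unadjusted p under 0.05 there were 4, beside 18.2% of all genes. Without overlap, 3 members were higher and 0 were lower, beside 18.2% and 3.44% of all genes. Of the 12, 8 passed the filter only through TSA(0-8h)+VC(8-15h), 1 only through TSA(0-8h) and 3 in both, and the 3 higher ones, Psmd5, Psmb7 and Psmc3, were among the 8.

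Psmd5 had 19.9, 0.251 and 0.917 RPKM in the TSA(0-8h) embryos and 89.9, 329 and 150 RPKM in the TSA(0-8h)+VC(8-15h) embryos. All 3 embryos with added VC were above all 3 with TSA alone. The log2 difference was 5.49 (SE 1.69, 95% interval 1.87 to 9.10), with a limma adjusted p of 0.0923 and an exact permutation p of 0.1, and it was 2.12, 8.05 and 6.30 within the pools. Limma-voom on recovered reads gave 6.12 with an adjusted p of 0.0107, the 1 member it called, where it called 9.11% of all genes.

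Psmb7 was at 22.5, 17.8 and 0.263 RPKM with TSA(0-8h) and 76.0, 148 and 118 RPKM with TSA(0-8h)+VC(8-15h). The controls, at 0.761, 517 and 17.5 RPKM, spanned both groups. The log2 difference between the treated groups was 3.75 (SE 1.62, limma adjusted p 0.227), and within pools 1.71, 2.98 and 6.56.

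Psmc3 was at 0.607, 8.61 and 0.156 RPKM with TSA(0-8h) and 17.3, 20.9 and 57.1 RPKM with TSA(0-8h)+VC(8-15h). Control replicate 1, at 66.3 RPKM, was above all of them. The log2 difference between the treated groups was 3.45 (SE 1.55, limma adjusted p 0.253), and within pools 3.51, 1.19 and 5.65.

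Psmd2 went the other way, at 58.8, 209 and 144 RPKM with TSA(0-8h) and 1.71, 2.61 and 81.6 RPKM with TSA(0-8h)+VC(8-15h). Replicate 3 of the latter overlapped the TSA(0-8h) embryos, and the log2 difference was -3.71 (SE 1.65, limma adjusted p 0.246). Psme4 and Psme3 differed by 1.13 (95% interval -1.14 to 3.41) and 0.53 (-1.47 to 2.53), with adjusted p-values of 0.631 and 0.815 by limma. The median log2 difference was 0.10 over the 46 members (56.5% positive) and 0.01 over the 15597 genes with any read (52.6% positive), and over the 3140 genes that passed the filter it was 1.20. With median-ratio scaling the median of the 46 members was -0.06, so that its direction turned. That of the genes that passed, an unlike set, was 0.00. By class, the median was -0.02 over the core, 0.72 over the regulatory particle, 1.95 over its 6 ATPases (4 positive) and -0.18 over its 11 non-ATPases (5 positive). The genes at 1 RPKM or more and the two-cell markers, given above, also differed between these groups.

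**Figure D5:**
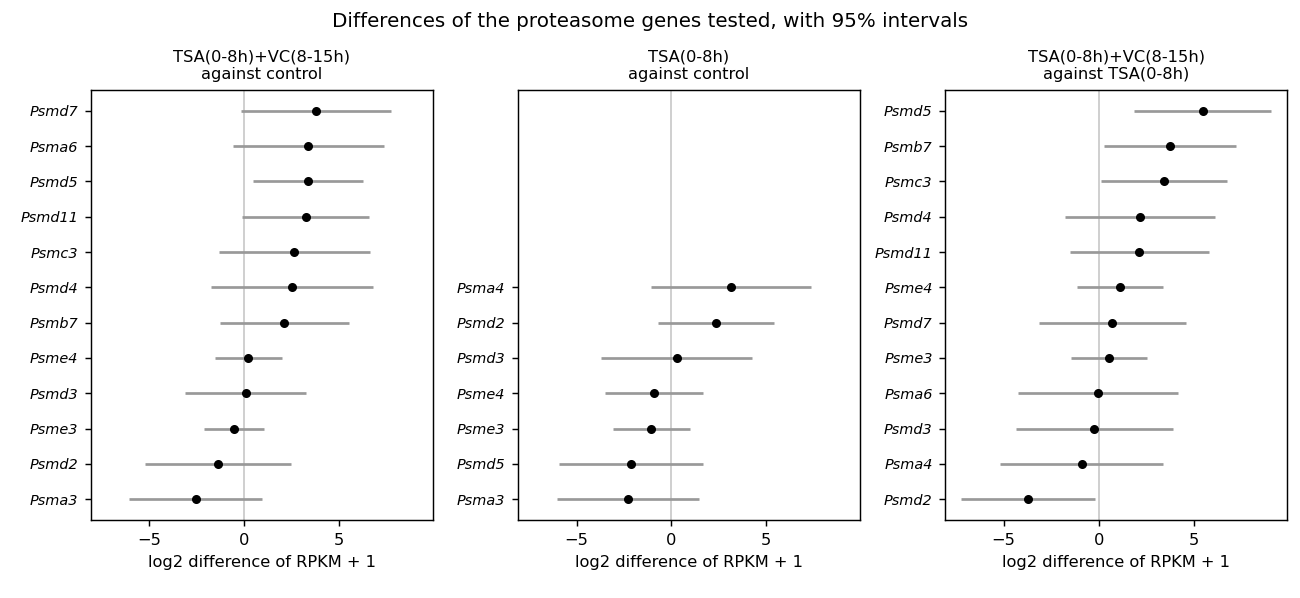
Log2 difference of RPKM + 1 with its 95% interval for each proteasome gene tested in the 3 comparisons of 3 against 3 embryos. Most intervals cover 0, and Psmd5 lies farthest from it, at 5.49 between TSA(0-8h)+VC(8-15h) and TSA(0-8h) embryos.

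All 14 embryos were also fitted with TSA and VC as additive terms, early and late VC counted alike. For TSA, 0 of 28 members passed by limma, beside 0% of 5032 genes, and for VC 0 of 28, beside 0.0199% of genes. At an unadjusted p under 0.05, 1 member was lower with TSA, beside 5.90% of genes in either direction, and 4 were higher with VC, beside 10.2%. Limma-voom called 0 members for either term, beside 0.0397% of genes for TSA and 0.0596% for VC. The 5 are described here with their values already seen.

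Psma5, an alpha subunit, was below 1 RPKM in 5 of the 6 embryos without VC (median 0.112, highest 1.06 RPKM) and at 1 RPKM or more in 6 of the 8 with VC (range 0.106 to 158, median 27.3 RPKM). Its log2 difference was 3.93 (SE 1.35, limma adjusted p 0.311). Psmc2, an ATPase, had a median of 0.0756 RPKM (highest 7.83) without VC and 20.1 RPKM (range 0.0854 to 124) with VC, and a log2 difference of 3.25 (SE 1.33, limma adjusted p 0.372). Both ranges overlapped.

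Psma7 was at 1 RPKM or more in 1 of 6 embryos without VC and 5 of 8 with VC, with a log2 difference of 2.87 (SE 1.21, limma adjusted p 0.390). Psmc3 was at 5.68 RPKM or more in all 8 embryos with VC and at 1 RPKM or more in 2 of 6 without, with medians of 19.1 and 0.484 RPKM, but control replicate 1 was as high as any. Its log2 difference was 2.71 (SE 1.33, limma adjusted p 0.473). With TSA, the non-subunit Psmc3ip was at 1 RPKM or more in 2 of 8 embryos against 5 of 6 without (log2 difference -3.74, SE 1.45, limma adjusted p 0.693). Without VC(8-15h) replicate 2, 0 members passed for either term by limma, and for VC 6 members had an unadjusted p under 0.05, beside 573 higher and 39 lower of 5032 genes. Leaving out each of the 14 embryos in turn, that number for VC ran from 1, without the VC(0-8h) embryo, to 7, without TSA(0-8h) replicate 2, and it was 1 with quantile normalization. The members' median log2 difference was 0.06 for TSA and 0.72 for VC, beside 0.00 and 0.04 for all 15597 genes with any read and 0.02 and 0.60 for the genes that passed the filter.

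Whether the difference made by late VC itself depended on TSA was tested as an interaction over 11 embryos. By limma, 0 of 34 members passed, beside 0% of 6620 genes. At an unadjusted p under 0.05 there were 3, Psmb1, Psmd6 and Psmd5, beside 4.46% of genes, and their adjusted p was 0.892 by limma. Limma-voom called 0 members, beside 0.0302% of genes. The fit rests on 2 embryos with VC(8-15h) alone, and without replicate 2 of these 1 member had an unadjusted p under 0.05, beside 65 higher and 138 lower of 6620 genes.

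Other genes of the ubiquitin and proteasome pathway were followed from a list, of which 49 genes are in the files and 14 were at 1 RPKM or more in all 14 embryos. Ube2d2a, a ubiquitin-conjugating enzyme, had a median of 390 RPKM (162 to 1046), and Uba1, which activates ubiquitin, 99.7 RPKM (11.9 to 1294). Nfe2l1, the transcription factor that induces proteasome genes when the proteasome is short, had a median of 370 RPKM (9.39 to 3888). By limma, 0 of 23, 0 of 18 and 0 of 23 genes of the list passed in the 3 comparisons, in the order given above, and 0 of 33, 0 of 33 and 0 of 40 for TSA, for VC and for their interaction.

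Between TSA(0-8h)+VC(8-15h) and TSA(0-8h) embryos, 5 of the 23 genes of the list were higher and 1 was lower without overlap, beside 18.2% and 3.44% of all genes. Nfe2l1 was at 41.6, 129 and 223 RPKM with TSA(0-8h) and 345, 1784 and 395 RPKM with TSA(0-8h)+VC(8-15h). The groups did not overlap, and the controls spanned both, at 3888, 9.39 and 264 RPKM. The log2 difference between the treated groups was 2.54 (SE 0.90, limma adjusted p 0.128). Ube2s and Cdc20, which serve the anaphase-promoting complex, and Nfyc, a CCAAT-binding factor subunit, were also higher without overlap in this comparison, with log2 differences of 4.43, 3.67 and 3.31 and limma adjusted p-values of 0.125, 0.221 and 0.184. The same held for Rad23b, a ubiquitin shuttle (1.73, limma adjusted p 0.416), while Ube2d2a was lower without overlap (-1.17, limma adjusted p 0.317). Ube2s and Nfyc passed the filter only through TSA(0-8h)+VC(8-15h), where they were high. For both Nfyc and Cdc20, the highest TSA(0-8h) embryo lay just under the lowest TSA(0-8h)+VC(8-15h) embryo.

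Against control, 1 of 23 genes was higher and 1 lower without overlap with TSA(0-8h)+VC(8-15h), beside 15.6% and 5.72% of all genes, and 1 of 18 was higher and 3 were lower with TSA(0-8h), beside 6.59% and 11.8%. Zfand5 was higher (2.63, limma adjusted p 0.398) and Ubqln1 lower (-0.73, limma adjusted p 0.718) with TSA(0-8h)+VC(8-15h). Zfand5 passed the filter only through TSA(0-8h)+VC(8-15h), where it was high. With TSA(0-8h), Uba1 was higher (2.29, limma adjusted p 0.414), and Ube2k, Cdc20 and Ubqln1 were lower (-1.96, -3.32 and -1.86, limma adjusted p 0.427, 0.434 and 0.562). For Ube2k the highest TSA(0-8h) embryo was at 168 RPKM and the lowest control at 171 RPKM.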

How the data were processed

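RNA of 14 single embryos was sequenced after amplification. After trimming, the authors aligned the reads to mm9 using TopHat2, counted reads on exons of each RefSeq transcript and deposited RPKM values, which scale the counts to transcript length and library total. Groups came from the sample titles and the sets called pools from the library identifier. Of 25650 entries, 25250 were given symbols from the RefSeq table of GRCm38.p6, and entries of a gene were summed to 20636 genes. Promoter windows are those of RefSeq, GRCm38.p6.

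RPKM values are not counts, so log2(RPKM + 1) was fitted with limma 3.58.1 (lmFit, eBayes with a trend, R 4.3.3), with genes at 1 RPKM or more in all 3 embryos of either group, in at least 6 of 14 (additive fit) or in at least 3 of 11 (interaction), and Benjamini-Hochberg adjustment over all genes tested at 0.05. Exact permutation tests went through every split of the embryos compared, in Python 3.11.15. A log2 difference on this scale understates the change of low genes. Members' medians were taken over all members with any read, whatever the filter, so they are not matched to medians of genes that passed it. The test was checked on simulated data. Reads were recovered from the RPKM steps (14532 of 14532 entries with reads in 2 or more embryos gave whole reads within a relative tolerance of 1e-12) for limma-voom.

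Members and lists were chosen with earlier results of these data known. Named were the catalytic subunits and their immune and thymic counterparts, the 2 highest medians of each class, members without overlap in a comparison, members listed at 0 in at least 7 embryos, and the activator, inhibitor and chaperone genes. Alternatives changed the pseudocount, filter, scaling, entry choice, trend, replicate block, pool term and tool, and left out each embryo. The TSA(0-8h)+VC(8-15h) and TSA(0-8h) comparisons with control share the control embryos.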

Additional observations from a re-analysis of the deposited data

How the results depend on the processing

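With limma, 0 members passed an adjusted p of 0.05 in each of the 6 fits and under every alternative pseudocount, filter, scaling, entry choice, pool term and left-out embryo tried. The count of 0 genes in the 3 comparisons of 3 against 3 embryos held for the fit as given: a minimum of 5 RPKM called 147 higher and 37 lower, 35 and 72, and 185 and 29 genes, a pseudocount of 0.1 called 85 and 22, 24 and 76, and 155 and 17, and limma-voom 250 and 71, 2 and 0, and 258 and 28. Without TSA(0-8h)+VC(8-15h) replicate 2, the last comparison called 118 genes higher and 2 lower. The exception was limma-voom on recovered reads, which called 1 member, Psmd5, higher in TSA(0-8h)+VC(8-15h) against TSA(0-8h) embryos. Psmd5 passed the filter there only through TSA(0-8h)+VC(8-15h), where it was high. Over the alternatives with limma, the adjusted p of Psmd5 there ranged from 0.0597 (minimum of 5 RPKM) to 0.719 (no filter on low values), and its log2 difference from 4.48 to 6.74, positive throughout. The replicate block called 0 members in the 3 comparisons, with 0.0748 as the adjusted p of Psmd5, and moved the genes called from 0 to 6 higher and 1 lower, 4 and 1, and 130 and 23. In the same order, 0 of 6, 3 of 6 and 0 of 6 embryos correlated best with their own number. Deviations of same-numbered embryos correlated at -0.048 to 0.051, so the numbers were not taken as pairs. The median ratio of regulatory to core RPKM was 0.871 from sums. From class medians it was 2.49, without TSA(0-8h) replicate 3, whose core median was 0. The median within-group SD of log2(RPKM + 1) was 1.80 over the genes tested in TSA(0-8h)+VC(8-15h) against control.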

Other observations

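Values of a member above 0 and below 1 RPKM occurred mostly next to high ones in the same pool (the sets given by the library identifier). Of the members' values below 10 RPKM, 54.2% lay above 0 and below 1 RPKM where another embryo of the pool was at 10 RPKM or more (116 of 214), and 14.2% where none was (26 of 183). Over all genes the shares were 52.2% and 20.4%. Values listed at 0 went the other way, at 21.5% (46 of 214) and 79.2% (145 of 183) for the members. Over all genes the shares at 0 were 22.1% and 74.2%. For example, Psmc4 was at 0.427 RPKM in TSA(0-8h)+VC(0-8h) replicate 1, in the pool with TSA(0-8h) replicate 1 at 370 RPKM, and had no read in the other pools. The members' counts at 5 RPKM or more, in place of 1, were 20, 8 and 14 in the controls, 19, 18 and 9 with TSA(0-8h) and 23, 20 and 22 with TSA(0-8h)+VC(8-15h), so that the last group touched the highest control.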
